A study of Mus musculus with 16 samples.

Results

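The genes described here encode collagens and the other matrix products of fibroblasts, together with the enzymes that cut this matrix and their inhibitors. The list held 54 genes, chosen by name with earlier results of these data known. Of these, 49 were found by symbol among the 17097 genes of the deposited array table. The other 5 (Fbn1, Thbs1, Thy1l, Lama4 and Nid2) were not analysed here. Each gene is represented by 1 probe set, a group of array probes read as 1 value, which was the one with the highest mean over the 16 arrays. The 49 genes fall into 5 fibrillar collagens, 7 other interstitial collagens, 8 basement membrane genes, 5 small leucine-rich proteoglycans, 6 elastic fibre and adhesive glycoproteins, 8 matricellular and other matrix genes, 3 fibroblast surface genes, 4 matrix proteases and 3 protease inhibitors.

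Fibrillar collagens are triple-helical proteins that assemble into the load-bearing fibres of connective tissue, and small proteoglycans such as lumican and osteoglycin bind these fibres and set their diameter and spacing. Type IV collagen forms instead the flat network of the basement membrane, which lies under epithelium and around blood vessels. In tumours the interstitial matrix comes mostly from fibroblasts, while much of the type IV collagen is laid down around the vessels by endothelial cells and pericytes. Cabozantinib inhibits receptor tyrosine kinases that include the VEGF receptors, MET and AXL, and antibodies to PD-1 block an inhibitory receptor of T cells.

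RNA was measured in whole subcutaneous tumours of Hepa1-6, a mouse hepatoma line, grown in the right flank of male C57BL/6 mice. The mice were 5 weeks old when the cells were injected in 50% Matrigel, itself a preparation of basement membrane proteins, and treatment began once tumours measured 200 to 300 mm3. Placebo mice (n = 4) received hamster IgG, and AntiPD1 mice (n = 3) received the hamster antibody J43 against murine PD1, each as 5 doses of 10 mg/kg given every 3 days. Cabozantinib mice (n = 5) received 30 mg/kg of the drug by mouth daily, and Combination mice (n = 4) received both drugs. Whether the Cabozantinib mice also received IgG was not given in the sources used here, and the labels do not repeat the doses for the Combination group. All tumours were taken on day 14. Each array holds 1 tumour, and p-values measure the spread between these tumours. The first number of the mouse name is shared by some of them: 12 and 17 each occur in Placebo and AntiPD1, 18 in Cabozantinib and Combination, and 11 in 2 Cabozantinib tumours. What that number marks was not given in the sources used here, and the replicate numbers follow only the order of deposition.

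Array medians lay between 4.92 and 5.13 on the log2 scale, and a group mean below 4.92 was treated as not shown to be above background. Col12a1 and Fbln2 lay below it in all 4 groups and Pdgfra in 3 of 4, which left 46 members for a filter on low signals. Of 10 markers of the liver lineage, 7 had means above it in all 4 groups, among them Alb (12.95 to 13.17) and Afp (12.5 to 12.67). Fga and Fgg were below it in 3 of 4 groups and Serpina1a in AntiPD1 (4.89), and 6 of 9 keratinocyte markers were below it on every array. Tumours differed in skeletal muscle genes (scores of -1.88 to 5.07, highest in AntiPD1 2, Cabozantinib 4 and Combination 4) and in adipocyte genes (-1.09 to 3.04, highest in Cabozantinib 2 and Combination 1). A score is the mean over a list of each gene's log2 value minus its mean over the 16 tumours. In whole tumours, fewer cells of a type and less RNA per cell cannot be told apart.

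Col4a1 and Col4a2, which encode the 2 chains of the common type IV collagen, lie head to head on chromosome 8 and are transcribed away from each other. In the RefSeq annotation of GRCm38.p6 their 5′ ends overlap by 22 bases, at chr8:11312805-11312826, and this stretch is shown on the plus strand because the starts of both genes that fell with cabozantinib lie in it.
Col4a1 and Col4a2, shared start: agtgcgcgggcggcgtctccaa
Ogn, Dpt and Serpinf1 were among the members that passed the test in the Combination group, and the 250 bases before each annotated start are shown, 5′ to 3′ on the gene's own strand. They lie at chr13:49607765-49608014 (plus strand), chr1:164796413-164796662 (plus strand) and chr11:75422624-75422873 (minus strand). Capitals mark TATAAA or CCAAT on either strand.
Ogn: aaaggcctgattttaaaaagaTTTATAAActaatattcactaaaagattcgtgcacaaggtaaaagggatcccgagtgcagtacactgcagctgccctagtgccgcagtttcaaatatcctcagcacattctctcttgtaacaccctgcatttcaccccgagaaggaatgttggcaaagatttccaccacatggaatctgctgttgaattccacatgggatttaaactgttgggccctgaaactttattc
Dpt: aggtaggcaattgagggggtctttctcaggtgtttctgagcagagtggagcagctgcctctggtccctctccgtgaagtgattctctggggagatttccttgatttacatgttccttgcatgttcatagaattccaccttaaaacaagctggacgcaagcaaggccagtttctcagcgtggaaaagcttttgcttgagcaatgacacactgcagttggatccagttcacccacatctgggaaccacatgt
Serpinf1: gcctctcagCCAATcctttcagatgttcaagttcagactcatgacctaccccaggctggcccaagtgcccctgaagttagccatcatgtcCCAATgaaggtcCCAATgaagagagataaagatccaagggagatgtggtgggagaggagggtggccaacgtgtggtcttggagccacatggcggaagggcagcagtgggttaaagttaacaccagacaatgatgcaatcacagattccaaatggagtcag
The letters TATAAA or their reverse complement TTTATA begin 227 and 229 bases before the Ogn start, overlapping each other, and CCAAT begins 241, 160 and 148 bases before the Serpinf1 start. Neither motif is in the Dpt window. Over the 41 windows of the 36 members with an entry, 8 (19.5%) held TATAAA on either strand, beside 4063 of all 32851 windows of that length. CCAAT or ATTGG was in 13 of the 41 (31.7%), beside 33.8% of all windows.

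Of the 49 members, 21 passed with the antibody and 2 with cabozantinib. They had 0 genes in common, which says little where so few passed with cabozantinib. With the antibody, averaged over tumours without and with cabozantinib, 20 of 49 members rose and 1 fell, beside 8.33% and 9.66% of all 17097 genes. With cabozantinib, averaged over tumours without and with the antibody, 0 of 49 rose and 2 fell, beside 0.86% and 1.26% of all genes. These shares also stand beside the counts of each class and gene list below. A member counts as having risen or fallen where limma's moderated test gave a Benjamini-Hochberg adjusted p under 0.05 over all genes. The median log2 difference of the members was 0.85 for the antibody, beside -0.03 over all genes, and -0.03 for cabozantinib, beside 0. Because the members were chosen with earlier results of these data known, setting them beside all genes is a description and no test. All differences below are on the log2 scale, where 1 is a doubling of signal, and a level is a log2 signal. Comparisons against Placebo share the same 4 control tumours.

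**Figure D1:**
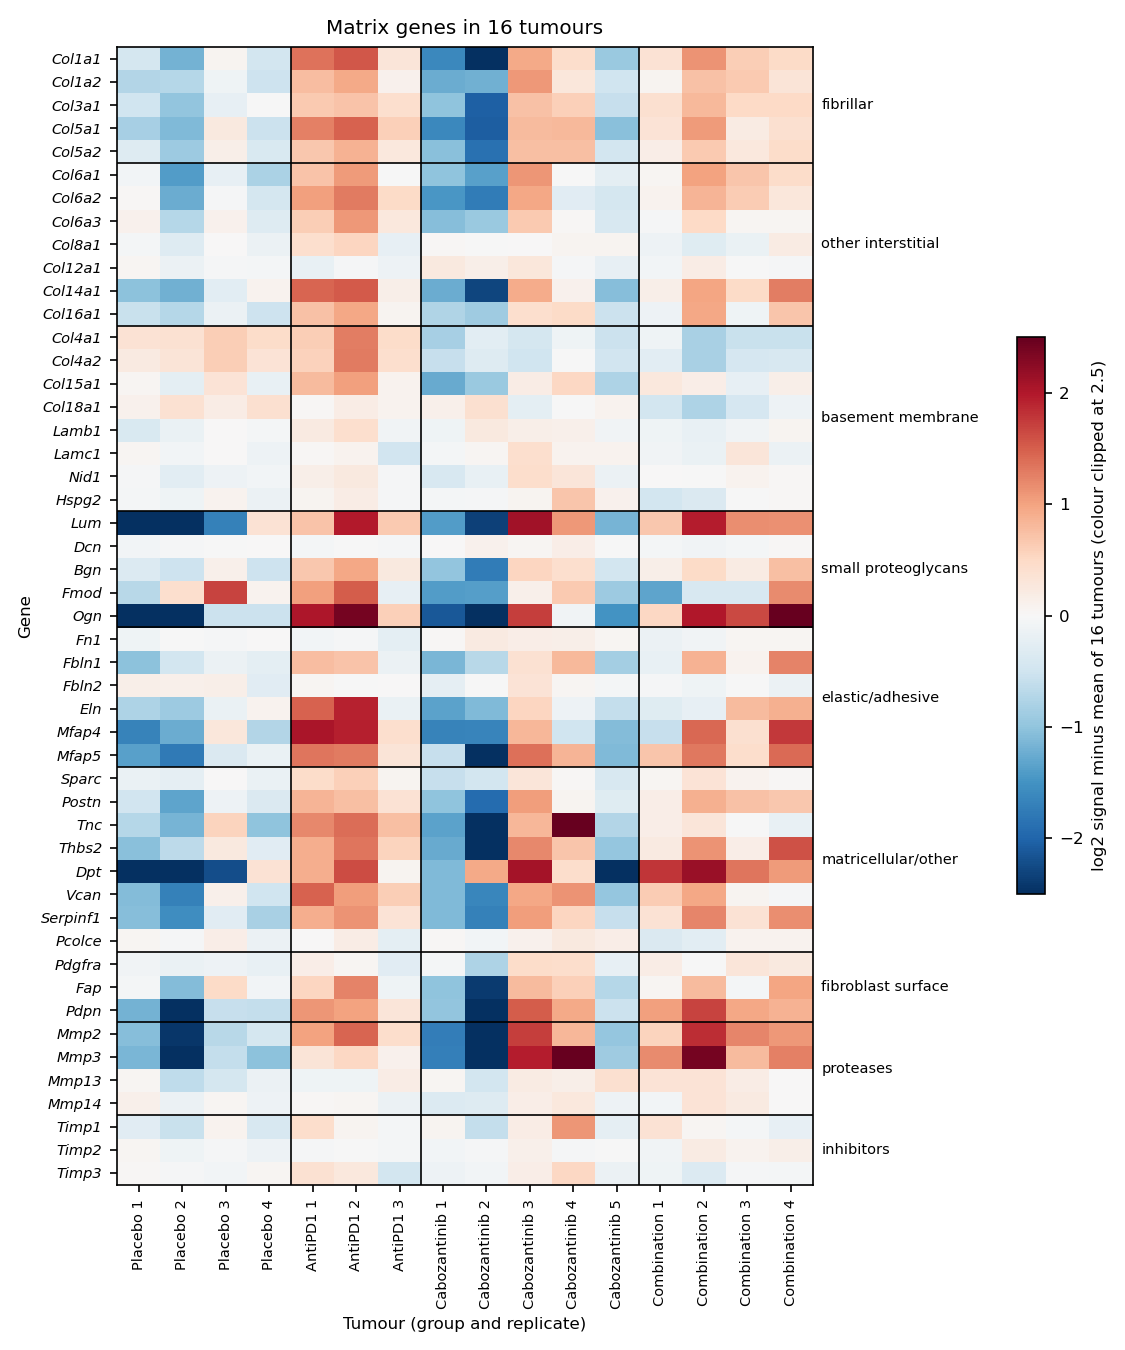
Each row is 1 of the 49 genes and each column 1 of the 16 tumours. Colour gives the log2 signal minus that gene's mean over all tumours, clipped at 2.5 in either direction, with gene classes separated by horizontal lines and treatment groups by vertical lines. Most fibrillar collagens, proteoglycans and matricellular genes were above their mean in the AntiPD1 and Combination tumours and in Cabozantinib 3 and 4, while Col4a1 and Col4a2 were below it in all 9 tumours given cabozantinib.

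**Figure D2:**
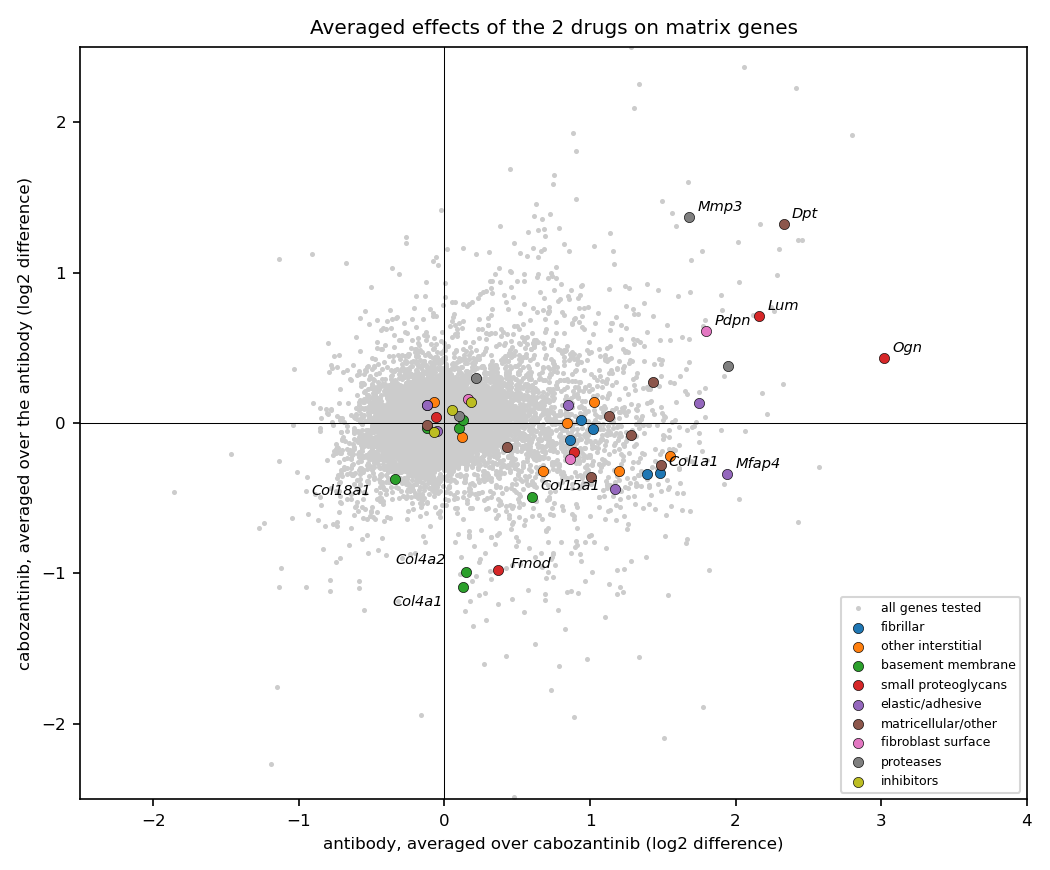
Each coloured point is 1 of the 49 genes, placed by its antibody difference (horizontal axis, log2) and its cabozantinib difference (vertical axis, log2), each averaged over the other drug. Grey points are all 17097 genes, of which 9 lie outside the axes. Col4a1 (-1.09) and Col4a2 (-0.99) stand low on the cabozantinib axis, and Ogn (3.02) is farthest right on the antibody axis.

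The type IV collagen genes had lower signal wherever cabozantinib was given. Averaged over the antibody, Col4a1 fell by 1.09 ± 0.14 (SE, 95% interval -1.38 to -0.80, 2.12-fold, adjusted p = 0.00125), and Col4a2 fell by 0.99 ± 0.13 (-1.27 to -0.72, 1.99-fold, adjusted p = 0.00145). These were the only 2 of the 49 members past the threshold for that drug, with the 1 probe set kept per gene. Both held their direction and their call in each of 29 other settings, between -1.18 and -0.92 for Col4a1 and between -1.08 and -0.86 for Col4a2.

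Col4a1 read 10.53, 10.55, 10.79 and 10.63 with Placebo, 10.79, 11.44 and 10.62 with AntiPD1, 9.34, 9.91, 9.73, 10.07 and 9.63 with Cabozantinib and 10.06, 9.36, 9.62 and 9.62 with Combination. The Col4a2 signal was 9.26, 9.35, 9.64 and 9.37 in the Placebo tumours, 9.60, 10.32 and 9.45 with the antibody, 8.45, 8.71, 8.53, 9.02 and 8.55 with cabozantinib and 8.77, 8.22, 8.62 and 8.63 with both. The 9 tumours given cabozantinib did not overlap the 7 that were not, for either gene, which the test on these same values had picked out. The share of all genes separated in this way was not computed. Against Placebo, the difference in the Combination group was -0.96 ± 0.19 for Col4a1 (adjusted p = 0.0158) and -0.85 ± 0.18 for Col4a2 (adjusted p = 0.0189). Against AntiPD1, it was -1.28 ± 0.20 (adjusted p = 0.0157) and -1.24 ± 0.19 (adjusted p = 0.0153). AntiPD1 tumours exceeded Cabozantinib tumours by 1.21 ± 0.20 for Col4a1 (adjusted p = 0.00494) and by 1.14 ± 0.19 for Col4a2 (adjusted p = 0.00509).

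Cabozantinib alone against Placebo gave differences of -0.89 ± 0.18 for Col4a1 and -0.75 ± 0.17 for Col4a2. Neither passed the threshold there (adjusted p = 0.0581 and 0.0857). The number of members that passed there was 2 without AntiPD1 2 and 1 without AntiPD1 3 or Cabozantinib 4. Adding the antibody to cabozantinib moved them little: Combination minus Cabozantinib was -0.07 for Col4a1 (95% interval -0.45 to 0.31) and -0.10 for Col4a2 (-0.46 to 0.27). For the antibody, averaged over cabozantinib, the differences were 0.13 (-0.16 to 0.42) and 0.15 (-0.13 to 0.42).

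Most markers of vessel cells had lower signal in the same tumours. Of 12 endothelial markers, 10 fell with cabozantinib, averaged over the antibody, among them Emcn (endomucin, -1.95 ± 0.23) and Cdh5 (VE-cadherin, -1.77 ± 0.15), and of 6 pericyte markers 4 fell, including Rgs5 (-0.79 ± 0.11) and Mcam (-1.14 ± 0.16). Over all genes, 1.26% fell in that comparison. Against Placebo, 1 of the 12 endothelial markers was higher and 6 were lower in Combination, and 0 and 4 of the 6 pericyte markers. The shares of all genes there were 3.71% higher and 6.64% lower. Mean levels in Placebo and Combination were 5.28 and 6.22 for Vwf, 4.09 and 4.89 for Tek, both below background, and 6.49 and 7.34 for the pericyte marker Ndufa4l2, which ran the other way. The endothelial score ran from -0.25 to 0.60 in Placebo, from 0.73 to 1.49 in AntiPD1, from -0.76 to -0.20 in Cabozantinib and from -0.37 to -0.17 in Combination. The pericyte score ran from 0.16 to 0.53, from 0.21 to 0.60, from -0.48 to -0.12 and from -0.26 to -0.11 in the same order. The part of these cells in the type IV collagen result was not tested. With the antibody, 7 of the 12 endothelial markers rose, beside 8.33% of all genes. Array controls also differed between groups: the hybridisation controls averaged 10.18 ± 0.31 (SD, n = 5) in Cabozantinib and 9.51 ± 0.42 (n = 4) in Placebo, and their part was not tested either.

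**Figure D3:**
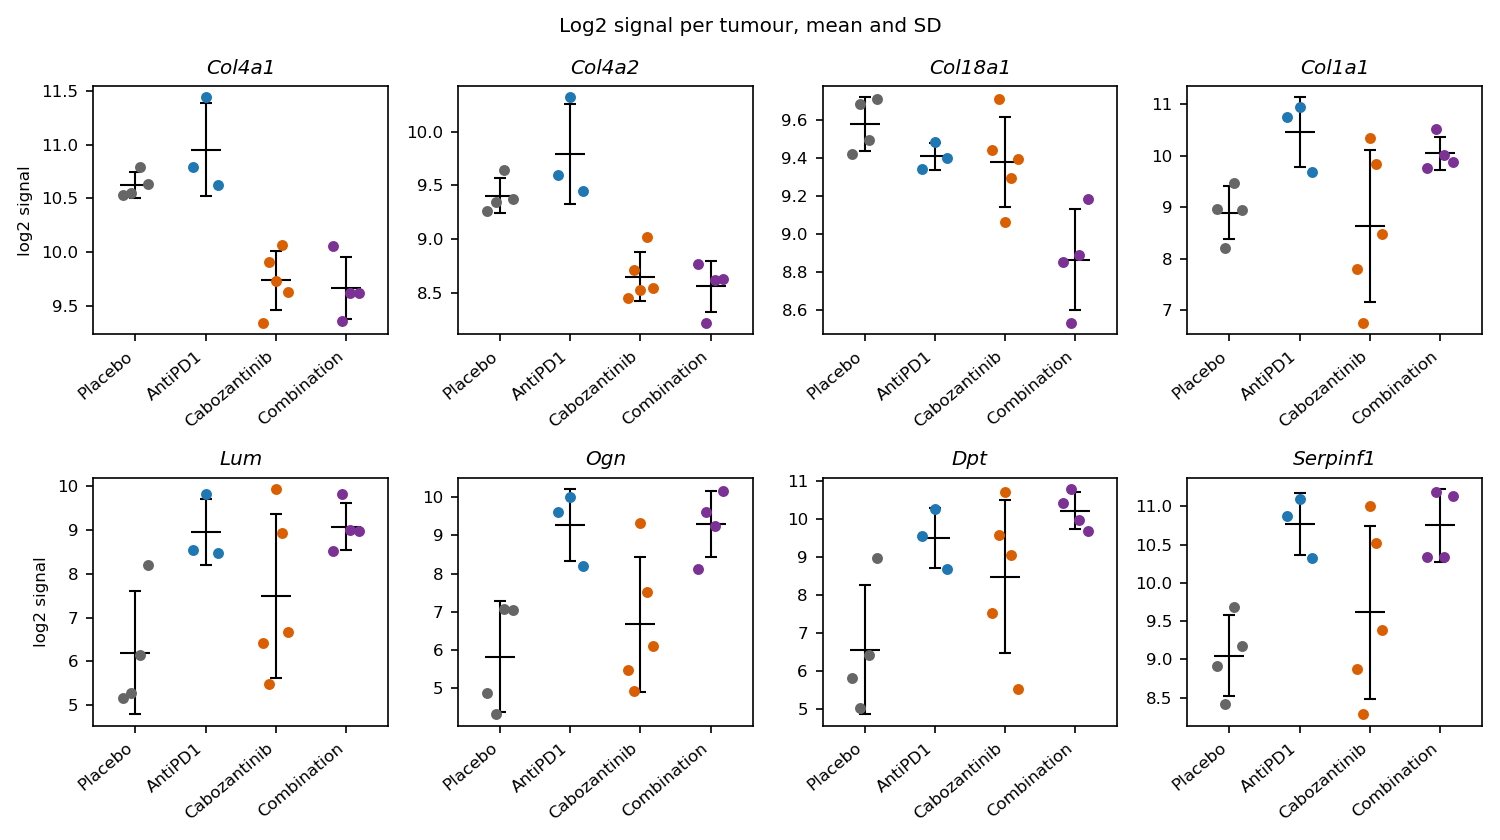
Each panel is 1 gene, with the log2 signal on the vertical axis and the 4 groups on the horizontal axis. Points are tumours, the wide line is the group mean and the bars are 1 SD. Axes differ between panels and do not start at 0. Col4a1 and Col4a2 separate the tumours given cabozantinib from the others, Col18a1 is lowest in Combination, and Lum, Ogn, Dpt and Serpinf1 spread most widely in Cabozantinib or Placebo.

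Col18a1, whose collagen carries the endostatin fragment at its end, was low in the Combination tumours. Col18a1 levels were 9.42, 9.68, 9.49 and 9.71 in Placebo, 9.34, 9.48 and 9.40 in AntiPD1, 9.44, 9.71, 9.06, 9.29 and 9.39 in Cabozantinib and 8.85, 8.53, 8.89 and 9.18 in Combination. Each Combination tumour lay below each Placebo tumour, as was so for 12.9% of all genes. The mean difference was -0.71 ± 0.14 (adjusted p = 0.015). The AntiPD1 and Cabozantinib groups differed from Placebo by -0.17 (95% interval -0.49 to 0.15) and -0.20 (-0.48 to 0.09), which did not pass. Averaged over cabozantinib, Col18a1 was the 1 member that fell with the antibody (-0.34 ± 0.10, adjusted p = 0.0319). That call depends on the probe set. A second, weaker one (mean 8.35) gave -0.19 ± 0.09 for the antibody. For cabozantinib it gave -0.61 ± 0.09, where the kept one gave -0.37 ± 0.10. Its difference was 0.12 in AntiPD1 against Placebo, of opposite sign, and -0.80 ± 0.12 in Combination against Placebo. The interaction of the drugs was not past the threshold for Col18a1.

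The remaining basement membrane genes gave small differences with either drug. Of the 8 measured, 0 rose and 2 fell with cabozantinib (median -0.20), and 0 rose and 1 fell with the antibody (median 0.11). Lamb1, Lamc1, Nid1 and Hspg2 encode laminin chains, nidogen and perlecan, the other structural parts of the sheet. Their cabozantinib differences were -0.03 (95% interval -0.21 to 0.15), 0.12 (-0.09 to 0.32), 0.02 (-0.21 to 0.25) and -0.03 (-0.26 to 0.20). These intervals leave out a fall of the size measured for Col4a1. Col15a1, a collagen of the zone between basement membrane and interstitium, gave -0.49 (-1.0 to 0.02) with cabozantinib and 0.60 (0.08 to 1.11, adjusted p = 0.0939) with the antibody, neither past the threshold.

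The fibrillar collagens make the interstitial fibres. With the antibody, averaged over cabozantinib, 4 of 5 rose: Col1a1 by 1.48 ± 0.44 (2.8-fold, adjusted p = 0.0332), Col5a1 by 1.39 ± 0.41 (adjusted p = 0.0316), Col3a1 by 1.02 ± 0.33 (adjusted p = 0.0452) and Col1a2 by 0.94 ± 0.30 (adjusted p = 0.0428). Col5a2 gave 0.86 ± 0.33 and did not pass (adjusted p = 0.081). Weaker probe sets, for which no call was made, gave 1.36 ± 0.45 for Col5a2 and 2.00 ± 0.63 for Col3a1. Those of Col5a1 gave less than the kept one, 1.17 ± 0.42 and 0.77 ± 0.33. With the probe sets kept, the median of the 5 genes was 1.02 with the antibody and -0.11 with cabozantinib, where 0 of 5 passed. Of 29 other settings, Col1a1 kept its call in 19, Col5a1 in 18, Col1a2 in 14 and Col3a1 in 10. All 13 macrophage markers rose in the same comparison, and with the macrophage or the Y-linked score as a covariate the 4 collagen differences lay between -0.26 and -0.06. Both scores were chosen after seeing the data and share much of their spread with the antibody. No gene of the whole table passed in those fits, and the part of macrophages was not tested.

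Col1a1 read 8.96, 8.21, 9.47 and 8.94 with Placebo, 10.75, 10.94 and 9.69 with AntiPD1, 7.79, 6.75, 10.35, 9.84 and 8.47 with Cabozantinib and 9.76, 10.51, 10.02 and 9.88 with Combination. The Col1a2 signal was 4.92, 4.93, 5.54 and 5.13 in the Placebo tumours, 6.43, 6.59 and 5.75 with the antibody, 4.40, 4.45, 6.74, 5.94 and 5.16 with cabozantinib and 5.72, 6.39, 6.31 and 5.98 with both. Col5a1 levels were 7.31, 7.03, 8.39 and 7.60 in Placebo, 9.40, 9.62 and 8.74 in AntiPD1, 6.52, 6.08, 8.93, 8.95 and 7.10 in Cabozantinib and 8.49, 9.20, 8.34 and 8.53 in Combination. The AntiPD1 and Combination tumours lay above all Placebo tumours for Col1a1 and Col1a2, and for Col5a1 Combination 3 lay below Placebo 3. Of all genes, 9.22% lay above in this way for AntiPD1 and 7.94% for Combination. The Cabozantinib tumours split, with 3 and 4 high and 1, 2 and 5 low. For Col1a2, Placebo 1 and 2 read close to the lowest array median (4.92) and Cabozantinib 1 and 2 below it. Background therefore limits the size of its differences. Col1a1 encodes the major chain of type I collagen and Col1a2 its partner, and Col5a1 encodes a chain of type V collagen, which starts fibre assembly. Against Placebo, 0 of 5 fibrillar collagens passed in AntiPD1 (0.96 to 1.67) or in Combination (0.75 to 1.15). All AntiPD1 tumours lay above all Placebo tumours for 5 of 5, beside 9.22% of all genes. These 5 genes were read in the same tumours and are not separate evidence.

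The other interstitial collagens followed for 4 of 7 members. Averaged over cabozantinib, Col14a1 rose by 1.55 ± 0.41 (adjusted p = 0.0228), Col6a2 by 1.20 ± 0.34 (adjusted p = 0.0277), Col6a1 by 1.03 ± 0.33 (adjusted p = 0.0422) and Col16a1 by 0.84 ± 0.24 (adjusted p = 0.0304). Col14a1 and Col16a1 encode collagens that sit on the surface of fibres, and Col6a1, Col6a2 and Col6a3 encode the chains of the beaded filaments of type VI collagen. Col6a3 gave 0.68 ± 0.23 (adjusted p = 0.0573) and Col8a1, a short-chain collagen, 0.12 (95% interval -0.10 to 0.34). Col12a1 was below background. The cabozantinib differences of the 7 ran from -0.32 to 0.14, and 0 passed.

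Col14a1 read 7.86, 7.69, 8.62 and 8.97 with Placebo, 10.34, 10.43 and 9.04 with AntiPD1, 7.65, 6.59, 9.81, 8.99 and 7.82 with Cabozantinib and 9.03, 9.88, 9.36 and 10.18 with Combination. The Col6a2 signal was 10.08, 8.82, 10.02 and 9.62 in the Placebo tumours, 11.08, 11.35 and 10.53 with the antibody, 8.61, 8.31, 11.02, 9.78 and 9.62 with cabozantinib and 10.15, 10.90, 10.70 and 10.34 with both. Col16a1 levels were 5.82, 5.66, 6.23 and 5.85 in Placebo, 7.11, 7.34 and 6.44 in AntiPD1, 5.62, 5.49, 6.79, 6.86 and 5.83 in Cabozantinib and 6.25, 7.33, 6.27 and 7.07 in Combination. All 3 had their lowest tumour in the Cabozantinib group, Cabozantinib 2, and their highest tumour was AntiPD1 2. Col6a1 and Col6a2 are neighbours on chromosome 10, and Col3a1 and Col5a2 on chromosome 1.

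Among the small proteoglycans, 3 of 5 rose with the antibody. Ogn (osteoglycin) rose by 3.02 ± 0.64 (8.13-fold, adjusted p = 0.0132), which is the widest difference of the 49 members in this comparison. Lum (lumican) rose by 2.16 ± 0.62 (4.48-fold, adjusted p = 0.0306) and Bgn (biglycan) by 0.89 ± 0.28 (1.86-fold, adjusted p = 0.0431). In Combination against Placebo, Ogn (3.45 ± 0.89, 10.9-fold, adjusted p = 0.0325) and Lum (2.87 ± 0.87, 7.32-fold, adjusted p = 0.0492) passed as well. With cabozantinib, 0 of 5 passed.

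Ogn read 4.88, 4.32, 7.07 and 7.06 with Placebo, 9.62, 9.99 and 8.20 with AntiPD1, 5.48, 4.93, 9.33, 7.51 and 6.11 with Cabozantinib and 8.12, 9.61, 9.25 and 10.16 with Combination. The Lum signal was 5.16, 5.29, 6.14 and 8.20 in the Placebo tumours, 8.54, 9.81 and 8.48 with the antibody, 6.43, 5.49, 9.93, 8.92 and 6.67 with cabozantinib and 8.51, 9.80, 9 and 8.97 with both. Bgn levels were 11.03, 10.86, 11.51 and 10.86 in Placebo, 12.05, 12.35 and 11.62 in AntiPD1, 10.39, 9.63, 11.91, 11.79 and 10.91 in Cabozantinib and 11.53, 11.85, 11.57 and 12.13 in Combination. For Ogn, Placebo 1 and 2 were at or under the lowest array median, so background limits the fold. The 4 Combination tumours lay above the 4 Placebo tumours for each of these 3 genes, beside 7.94% of all genes.

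Dcn (decorin) and Fmod (fibromodulin) did not follow. Dcn, the proteoglycan that binds type I collagen fibres, read between 12.69 and 12.94 in all 16 tumours, and its antibody difference was -0.06 (95% interval -0.13 to 0.02). The highest signal on an array was between 13.42 and 13.51, so Dcn was near the upper end of the scale. Lum and Dcn are neighbours on chromosome 10, where Lum spanned 5.16 to 9.93. Fmod, which competes for the same sites on collagen as lumican, gave 0.37 (-0.58 to 1.33) with the antibody and -0.98 (-1.94 to -0.02, adjusted p = 0.297) with cabozantinib.

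Of the 6 elastic fibre and adhesive glycoproteins, 2 rose with the antibody and 0 passed with cabozantinib. Mfap4, a microfibril-associated protein, rose by 1.94 ± 0.45 (3.83-fold, adjusted p = 0.0158) and Eln (elastin) by 1.17 ± 0.34 (2.25-fold, adjusted p = 0.0327). Mfap4 read 4.29, 4.71, 6.24 and 5.23 with Placebo, 8, 7.89 and 6.38 with AntiPD1, 4.29, 4.31, 6.79, 5.45 and 4.87 with Cabozantinib and 5.38, 7.40, 6.35 and 7.72 with Combination. The Eln signal was 4.85, 4.72, 5.47 and 5.71 in the Placebo tumours, 7.11, 7.55 and 5.47 with the antibody, 4.29, 4.52, 6.16, 5.50 and 5.04 with cabozantinib and 5.32, 5.42, 6.42 and 6.52 with both. AntiPD1 1 and 2 were the highest of the 16 for both genes, and Placebo and Cabozantinib each held tumours under the lowest array median.

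Mfap5 and Fbln1 gave 1.75 ± 0.59 (adjusted p = 0.052) and 0.85 ± 0.30 (adjusted p = 0.0646), just short of the threshold. Fn1 levels were 12.46, 12.56, 12.55 and 12.58 in Placebo, 12.50, 12.55 and 12.32 in AntiPD1, 12.61, 12.80, 12.73, 12.72 and 12.62 in Cabozantinib and 12.42, 12.49, 12.63 and 12.62 in Combination. Fn1 (fibronectin) was thus nearly level, with antibody and cabozantinib differences of -0.12 (95% interval -0.22 to -0.01) and 0.12 (0.01 to 0.23) that did not pass. Like Dcn, Fn1 was near the upper end of the scale, where array maxima were 13.42 to 13.51, and the part of this limit was not tested. Fn1 was also the 1 member whose Cabozantinib tumours all lay above all Placebo tumours, beside 1.97% of all genes. For 2 members (Col4a1 and Col4a2) they lay below, beside 2.54%.

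The matricellular genes, whose products sit in the matrix and signal to cells, rose with the antibody for 5 of 8 members. Dpt (dermatopontin), which binds decorin and fibronectin, rose by 2.33 ± 0.69 (5.03-fold, adjusted p = 0.0337), and Serpinf1, the secreted serpin PEDF, by 1.43 ± 0.35 (2.69-fold, adjusted p = 0.0187). Vcan (versican) rose by 1.28 ± 0.41 (adjusted p = 0.044), Postn (periostin) by 1.13 ± 0.33 (adjusted p = 0.0332) and Sparc by 0.43 ± 0.12 (adjusted p = 0.0301). Tnc, Thbs2 and Pcolce did not pass, at 1.01 ± 0.56, 1.49 ± 0.57 and -0.12 ± 0.09. A second, weaker probe set, for which no call was made, gave 0.66 ± 0.35 for Tnc and 1.53 ± 0.46 for Thbs2. Combination exceeded Placebo by 3.65 ± 0.96 for Dpt (12.5-fold, adjusted p = 0.0349) and by 1.70 ± 0.49 for Serpinf1 (3.25-fold, adjusted p = 0.0435).

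Dpt read 5.83, 5.04, 6.41 and 8.98 with Placebo, 9.54, 10.25 and 8.69 with AntiPD1, 7.52, 9.58, 10.71, 9.06 and 5.53 with Cabozantinib and 10.42, 10.79, 9.96 and 9.68 with Combination. The Serpinf1 signal was 8.91, 8.42, 9.69 and 9.17 in the Placebo tumours, 10.88, 11.095 and 10.32 with the antibody, 8.88, 8.28, 11.01, 10.52 and 9.39 with cabozantinib and 10.34, 11.19, 10.34 and 11.14 with both. Sparc levels were 12.18, 12.11, 12.36 and 12.18 in Placebo, 12.80, 12.93 and 12.41 in AntiPD1, 11.77, 11.89, 12.64, 12.38 and 11.95 in Cabozantinib and 12.398, 12.68, 12.44 and 12.37 in Combination. The 4 Combination tumours exceeded all Placebo tumours for these genes, beside 7.94% of all genes. Dpt differed from the others within the Cabozantinib group. Cabozantinib 2, the lowest of the 16 tumours for 18 members, read 9.58 for Dpt. The same tumour had the highest adipocyte score (3.04). With the adipocyte score as a covariate the difference of Dpt in Combination against Placebo was 2.80 (adjusted p = 0.113). Over 30 other settings it ran from 2.80 to 4.45. The part of adipocytes in the Dpt values was not tested.

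Of the 3 fibroblast surface genes, Pdpn (podoplanin) rose with the antibody, by 1.80 ± 0.53 (3.48-fold, adjusted p = 0.0328). Pdpn read 6.98, 5.42, 7.58 and 7.57 with Placebo, 9.27, 9.17 and 8.46 with AntiPD1, 7.18, 5.31, 9.67, 9.10 and 7.63 with Cabozantinib and 9.19, 9.84, 9.12 and 9.03 with Combination. The Placebo and Cabozantinib tumours spread widely, from 5.42 to 7.58 and from 5.31 to 9.67. The AntiPD1 and Combination tumours lay above all Placebo tumours, beside 9.22% and 7.94% of all genes. Fap, a surface protease of activated fibroblasts, and Pdgfra, a growth factor receptor of fibroblasts, did not pass. The Fap signal was 7.69, 6.66, 8.21 and 7.67 in the Placebo tumours, 8.27, 8.97 and 7.63 with the antibody, 6.72, 5.35, 8.53, 8.33 and 7.02 with cabozantinib and 7.79, 8.52, 7.68 and 8.72 with both. Pdgfra levels were 4.71, 4.62, 4.66 and 4.61 in Placebo, 4.95, 4.85 and 4.51 in AntiPD1, 4.74, 4.03, 5.26, 5.24 and 4.59 in Cabozantinib and 4.98, 4.78, 5.1 and 5.04 in Combination. Their antibody differences were 0.86 (95% interval -0.03 to 1.75) and 0.16 (-0.16 to 0.48), and all 4 groups overlapped for Fap.

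Among the matrix proteases, only Mmp2, the gelatinase made by stromal cells, passed: it rose with the antibody by 1.95 ± 0.56 (3.87-fold, adjusted p = 0.0301). Mmp2 read 7.64, 6.28, 8.01 and 8.26 with Placebo, 9.71, 10.17 and 9.15 with AntiPD1, 6.98, 5.86, 10.43, 9.53 and 7.74 with Cabozantinib and 9.26, 10.56, 9.92 and 9.79 with Combination. The Mmp3 signal was 6.71, 4.08, 7.26 and 6.84 in the Placebo tumours, 8.18, 8.38 and 7.96 with the antibody, 6.15, 5.04, 9.82, 11.30 and 6.98 with cabozantinib and 9.05, 10.25, 8.66 and 9.13 with both. Mmp13 levels were 11.59, 10.90, 11.11 and 11.40 in Placebo, 11.44, 11.43 and 11.72 in AntiPD1, 11.59, 11.08, 11.74, 11.68 and 11.95 in Cabozantinib and 11.89, 11.88, 11.72 and 11.55 in Combination. Mmp3 (stromelysin) spread from 4.08 to 11.3, with 1.68 ± 0.79 for the antibody (adjusted p = 0.153) and 1.37 ± 0.79 for cabozantinib (adjusted p = 0.428). Mmp13, a collagenase, and Mmp14, a membrane-bound activator of Mmp2, gave antibody differences of 0.22 (95% interval -0.05 to 0.48) and 0.10 (-0.11 to 0.31).

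The inhibitors of these proteases gave small differences in the probe sets kept. Timp1 read 10.01, 9.72, 10.38 and 9.89 with Placebo, 10.72, 10.36 and 10.23 with AntiPD1, 10.35, 9.69, 10.47, 11.38 and 10.07 with Cabozantinib and 10.64, 10.34, 10.23 and 10.09 with Combination. The Timp2 signal was 11.87, 11.72, 11.80 and 11.70 in the Placebo tumours, 11.79, 11.81 and 11.78 with the antibody, 11.75, 11.80, 11.96, 11.80 and 11.81 with cabozantinib and 11.73, 12.04, 11.91 and 11.97 with both. Timp3 levels were 10, 9.95, 9.91 and 10.03 in Placebo, 10.36, 10.25 and 9.52 in AntiPD1, 9.85, 9.91, 10.15, 10.50 and 9.84 in Cabozantinib and 9.87, 9.64, 9.95 and 9.93 in Combination. None of the 3 passed in any of the 10 comparisons. For the antibody the intervals were -0.24 to 0.60 for Timp1, -0.06 to 0.16 for Timp2 and -0.33 to 0.20 for Timp3, so a rise of the size seen for Mmp2 lies outside all 3. The kept Timp2 probe set is the brightest (mean 11.83) and moved least. In Combination against Placebo it gave 0.14 ± 0.07, and the other Timp2 probe sets gave 0.34 to 0.53. For cabozantinib, averaged over the antibody, it gave 0.09 ± 0.05, and the others 0.21 to 0.37.

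Between pairs of groups, 0 to 7 members passed. In AntiPD1 against Placebo 0 of 49 passed in either direction, beside 0.0175% higher and 0.0117% lower of all genes, and 23 of 49 had an unadjusted p under 0.05, beside 3278 of 17097 genes. The members' median was 0.90 with 43 of 49 above 0. For 25 of 49, all 3 AntiPD1 tumours lay above all 4 Placebo tumours, beside 9.22% of all genes, and for 0 they lay below, beside 12.3%. In Combination against Placebo 4 rose (Lum, Ogn, Dpt and Serpinf1) and 3 fell (Col4a1, Col4a2 and Col18a1), beside 3.71% and 6.64% of all genes. Combination tumours lay above all Placebo tumours for 21 members, beside 7.94%, and below for 3, beside 12.9%. The 7 calls became 0 without Placebo 2 or Combination 2, 2 without Placebo 3, 3 without Placebo 4 or Combination 3, and 4 without Placebo 1, Combination 1 or Combination 4. They became 11 without Cabozantinib 3 and 12 without Cabozantinib 2. Of 30 other settings, Col18a1 and Col4a1 kept their calls in 26, Col4a2 in 24, Ogn in 20, Dpt in 18, Serpinf1 in 14 and Lum in 11.

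In Cabozantinib against Placebo 0 rose and 0 fell, beside 0.111% and 0.146% of all genes. There 4 members had an unadjusted p under 0.05, beside 2218 genes, and the median was 0.12. Combination against Cabozantinib gave 0 in both directions, beside 0.00585% and 0%, with 15 members at an unadjusted p under 0.05, beside 3853 genes, and a median of 0.61. The number past the adjusted threshold went from 0 to 13 without Cabozantinib 3 and to 1 without Combination 4. Combination against AntiPD1 gave 0 higher and 2 lower (Col4a1 and Col4a2), beside 0.00585% and 0.228%, with a median of -0.11; the 2 became 0 without AntiPD1 2 or Combination 2 and 1 without Combination 3. AntiPD1 against Cabozantinib gave 2 higher (the same 2 genes) and 0 lower, beside 2.75% and 2.67%, with a median of 1.0; the 2 became 16 without Cabozantinib 3 and 5 without Cabozantinib 4.

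Whether the 2 drugs together differed from the sum of each was asked by the interaction. It passed for 0 members and for 0% of all genes, and limma gave an unadjusted p under 0.05 for 3 members (Lamb1, Hspg2 and Col8a1, -0.50 to -0.48) and for 440 genes, where 855 would be expected at that threshold. The interaction was below 0 for 43 of 49 members, with a median of -0.29, and no member's value was separated from 0 after adjustment. The test of any difference among the 4 groups passed for 4 members (Col4a1, Col4a2, Col18a1 and Ogn), beside 6.77% of all genes. It passed for 20 members without Cabozantinib 3, and for 2 without any 1 of Placebo 2, 3 or 4, AntiPD1 1 or 2, Cabozantinib 1 or 5, or Combination 1, 2 or 3.

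The spread between tumours differed among the groups. The median SD of a member was 0.84 in Cabozantinib, 0.39 in Placebo, 0.40 in AntiPD1 and 0.28 in Combination, while over all genes it was 0.12 to 0.16 in each group. For fibrillar collagens the median SD was 1.15 in Cabozantinib and 0.31 in Combination, and for basement membrane genes 0.26 and 0.23. AntiPD1 2 was the highest of the 16 tumours for 16 members, Cabozantinib 3 for 9, and Cabozantinib 1 and 2 were the lowest for 10 and 18. For comparison, Cabozantinib 2 was the lowest for 1850 of 17097 genes. The skeletal muscle scores of Cabozantinib 3 and 4 were 1.78 and 3.90, and those of 1, 2 and 5 were -1.79, -1.67 and -0.91, and their part in the spread was not tested.

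The count of 21 members that passed with the antibody moved when single tumours were left out. Without AntiPD1 2 it was 1, which was Ogn, without AntiPD1 1 it was 3 and without Placebo 2 it was 4. It was 5 without Combination 2, 6 without Cabozantinib 1, 7 without Cabozantinib 5, 9 without Placebo 4 and 29 without Cabozantinib 4. Without the 3 tumours highest in skeletal muscle genes it was 4, and without the 2 highest in adipocyte genes 11. Of 29 other settings, Ogn kept its call in 27, Mfap4 and Serpinf1 in 25, Col14a1 in 24, Col6a2 in 21, and Pdpn and Mmp2 in 20. Lum, Col16a1, Sparc and Postn kept it in 19, Col18a1 in 18, Eln and Dpt in 16, Col6a1 in 14, and Bgn and Vcan in 12. Ogn kept its call without those 3 tumours (2.80, adjusted p = 0.0445).

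Macrophage markers moved with the same groups. All 13 rose with the antibody, averaged over cabozantinib, among them Trem2 (2.26 ± 0.48), Adgre1 (1.75 ± 0.38) and Mrc1 (1.49 ± 0.33). The macrophage score ran from -1.48 to -0.08 in Placebo, from 0.45 to 0.81 in AntiPD1, from -2.04 to 0.52 in Cabozantinib and from 0.50 to 1.26 in Combination, and 0 of the 13 were below background on every array. A score of 3 Y-linked genes, in male mice, ran from -0.89 to 0.09, from 0.43 to 0.77, from -1.02 to 0.15 and from 0.25 to 1.0 in the same order. With the macrophage score as a covariate the members' median antibody difference was -0.14, and with the Y-linked score it was -0.18, and in both limma fits 0 members and 0 of all 17097 genes passed. An unadjusted p under 0.05 was given to 1 member and 1310 genes with the macrophage score, and to 2 members and 998 genes with the Y-linked score. Neither score overlapped between Placebo and either group given the antibody. Between Cabozantinib and Combination the macrophage score overlapped (highest 0.52 and lowest 0.50), and the Y-linked score did not. The covariate and the antibody thus share much of their spread. The skeletal muscle score as a covariate left a median of 0.72 and 40 of 49 above 0. Liver lineage scores were between -0.94 and -0.74 in Combination 1, 2 and 3 and 0.52 in Combination 4.

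**Figure D4:**
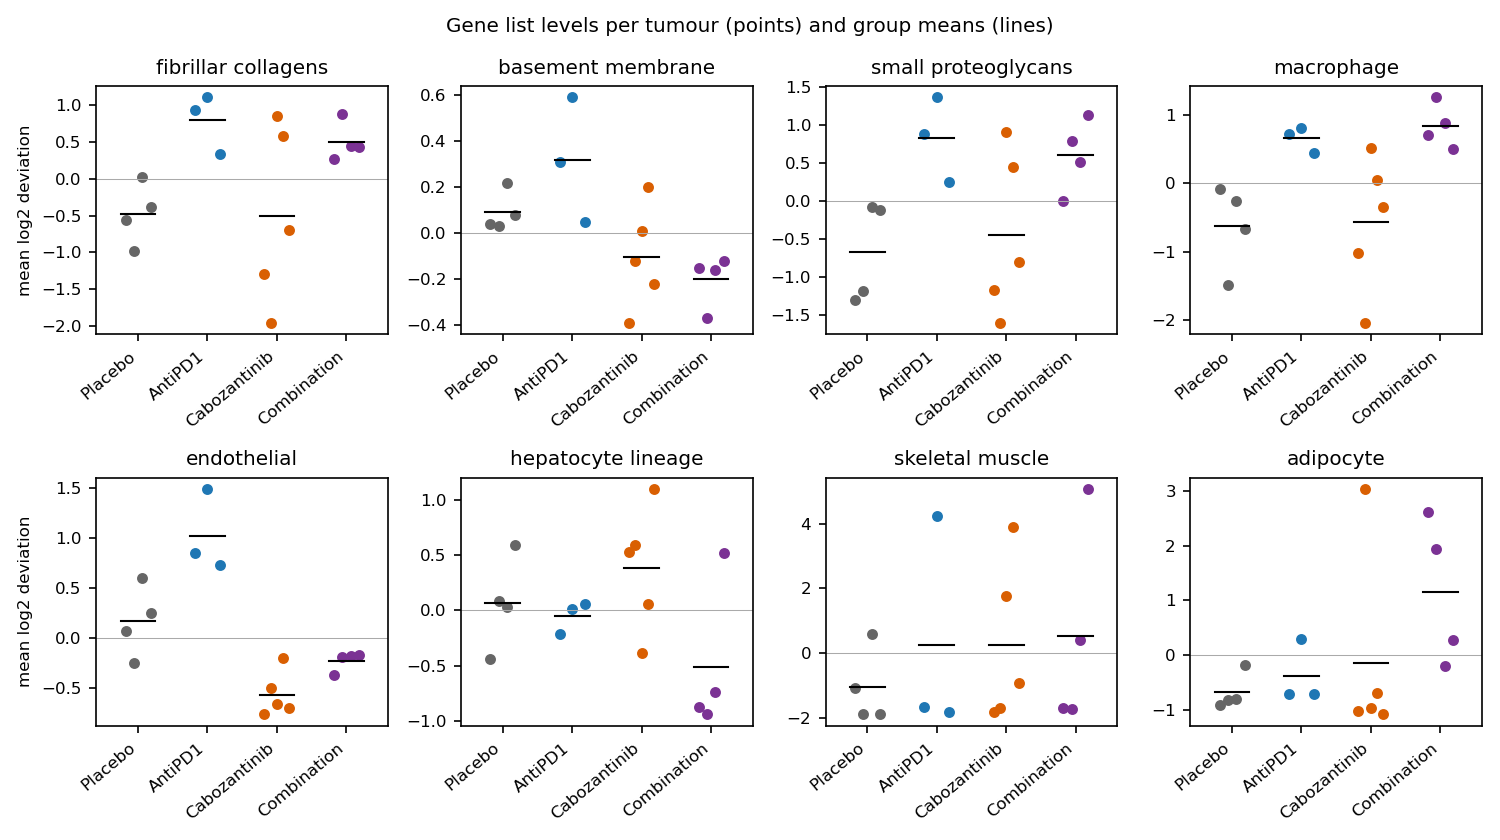
Each panel is a gene list, with the list's mean log2 deviation from the 16-tumour mean on the vertical axis and the 4 groups on the horizontal axis. Points are tumours and lines are group means, and axes differ between panels. Fibrillar collagens, small proteoglycans and macrophage markers are higher in AntiPD1 and Combination than in Placebo. The group means of the basement membrane and endothelial lists are lower in the groups given cabozantinib. Basement membrane scores overlap, from 0.03 to 0.22 in Placebo and from -0.39 to 0.20 in Cabozantinib, and the list holds members with small differences (Lamb1, Lamc1, Nid1 and Hspg2).

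Where a member had several probe sets above background, they mostly moved together. For the antibody, 23 of 24 such members had the same sign in each of these probe sets, Timp3 being the exception, and in Combination against Placebo 24 of 24 did. In AntiPD1 against Placebo 22 of 24 did, and Col18a1 and Hspg2 were the exceptions. For cabozantinib 20 of 24 did, and the 4 others (Hspg2, Lamb1, Lamc1 and Nid1) were basement membrane genes with differences near 0. The second probe set of Col4a1 is weaker (mean 8.94), and with the mean over probe sets its Combination difference was -0.84.

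Genes that fold, modify and crosslink collagen were described as a separate list. For this list and those below, the shares of all genes were 8.33% higher and 9.66% lower with the antibody. With cabozantinib they were 0.86% and 1.26%. Of 18 measured, 6 rose and 2 fell with the antibody (median 0.25), with Plod2, a lysyl hydroxylase, at 1.21 ± 0.36 (adjusted p = 0.0353), Serpinh1, the collagen chaperone HSP47, at 1.01 ± 0.28 (adjusted p = 0.0264) and P4ha3, a prolyl hydroxylase subunit, at 0.57 ± 0.13 (adjusted p = 0.0146). Lox, the lysyl oxidase that crosslinks collagen, rose by 1.32 ± 0.40 (adjusted p = 0.0353). With cabozantinib 2 rose and 0 fell: P4ha2, another prolyl hydroxylase subunit, by 0.55 ± 0.09 (adjusted p = 0.00592) and Loxl4 by 0.59 ± 0.11 (adjusted p = 0.0158). P4ha2 also passed in Cabozantinib against Placebo (0.74 ± 0.12, adjusted p = 0.0169).

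Of 19 genes for TGF-beta ligands, receptors and targets, 5 rose and 3 fell with the antibody (median 0.14). Tgfbr3 (1.15 ± 0.28, adjusted p = 0.018) and Eng (0.87 ± 0.20, adjusted p = 0.0158), both co-receptors, rose and Smad2, a signal transducer, fell (-0.35 ± 0.08, adjusted p = 0.014). Tgfb1, the main ligand, gave 0.14 ± 0.12 (adjusted p = 0.454). Inhba, the activin A subunit, was the 1 of 19 that rose with cabozantinib (1.49 ± 0.35, adjusted p = 0.043). Of 9 PDGF and fibroblast growth factor genes, 3 rose with the antibody (median 0.09): Igf1 (2.18 ± 0.38, adjusted p = 0.0101), Pdgfd (1.10 ± 0.21, adjusted p = 0.011) and Fgf7 (0.85 ± 0.24, adjusted p = 0.0307).

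Of 17 other fibroblast genes, 8 rose and 1 fell with the antibody (median 0.75), with Meox2 (0.90 ± 0.19, adjusted p = 0.0132) and Gsn (gelsolin, 0.96 ± 0.24, adjusted p = 0.0199) rising and Twist2 falling (-0.48 ± 0.10, adjusted p = 0.0137). Meox2 fell with cabozantinib (-0.83 ± 0.19, adjusted p = 0.0377). Of 9 contractile genes 1 rose with the antibody, Myl9 (1.01 ± 0.24, adjusted p = 0.0157), which also fell with cabozantinib (-0.99 ± 0.24, adjusted p = 0.044). The count of 1 in 9 is near the share of all genes that rose (8.33%). Acta2, smooth muscle actin, gave 0.46 ± 0.15 with the antibody (adjusted p = 0.0508). Pdgfrb and Ddr2, a fibroblast and pericyte receptor and a collagen receptor, gave 0.23 ± 0.25 (adjusted p = 0.57) and -0.10 ± 0.08 (adjusted p = 0.374), while Vim (vimentin) rose by 0.41 ± 0.11 (adjusted p = 0.0247). Thy1, a surface protein of fibroblasts and other cells, gave 0.45 ± 0.24 (adjusted p = 0.199). Whether the listed name Thy1l, which was not found, stands for Thy1 is not known.

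Of 19 matrix receptor genes, 1 rose and 5 fell with the antibody (median -0.02), and the 3 with the lowest p were integrin chains of epithelial cells that bind laminin: Itgb4 (-0.55 ± 0.10, adjusted p = 0.0108), Itga6 (-0.30 ± 0.06, adjusted p = 0.0127) and Itga3 (-0.43 ± 0.10, adjusted p = 0.016). With cabozantinib Itga8 fell by 0.56 ± 0.08 (adjusted p = 0.00242) and Itgav rose by 0.24 ± 0.05 (adjusted p = 0.0175). Of 17 other proteases and an inhibitor, 7 rose and 2 fell with the antibody (median 0.61), with Mmp23 (1.19 ± 0.22, adjusted p = 0.0108) and the lysosomal Ctsb (0.62 ± 0.14, adjusted p = 0.0149) rising and Adamts4, which cuts proteoglycans, falling (-0.53 ± 0.10, adjusted p = 0.011).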

How the data were processed

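RNA from 16 whole tumours was hybridised to Affymetrix mouse arrays, 1 array per tumour, from 50 ng of RNA. The deposited values are log2 signals made by the authors with RMA, which corrects background, quantile-normalizes arrays and summarises probes, in affy 1.62.0, per the submitters' processing notes. The table holds 45141 probe sets, of which 104 are controls, 28898 carry 1 gene symbol in the platform annotation, 551 several and 15588 none, and only probe sets with 1 symbol were used. Where a gene had several probe sets, the one brightest on average was kept, which left 17097 genes. All columns matched a sample (0 did not). Values per tumour are listed in order of replicate number. The number of arrays limits the precision.

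Group means were fitted with limma 3.58.1 in R 4.3.3 (lmFit and eBayes) over all 4 groups with no covariate, with Benjamini-Hochberg adjustment across the 17097 genes and a threshold of 0.05. The 10 comparisons were 6 pairs of groups, each drug averaged over the other, their interaction and any difference among the groups. The procedure was tested on simulated data. The members and the gene lists were chosen with earlier results of these data known. Values per tumour are given for members past the threshold between 2 groups and, in each class, for up to 3 members with the lowest p among the 4 groups. Of other lists, up to 3 genes with the lowest p are named, besides Thy1, Acta2, Tgfb1, Serpinh1, Lox, Pdgfrb, Ddr2 and Vim.

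Alternatives were a fit to 2 groups only, a filter on low signals, centring or quantile normalization of the arrays, another variance prior, array weights, the mean over probe sets, muscle or adipocyte scores as covariates or without the tumours highest in them, a random block by the first number of the mouse name and leaving out each tumour. The covariates for Y-linked genes (Kdm5d, Eif2s3y and Uty) and for macrophage genes were chosen after seeing the data. Sequences come from RefSeq (GRCm38.p6).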

Additional observations from a re-analysis of the deposited data

Results flagged for a closer look

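Timp2, an inhibitor of matrix proteases, read 11.96 in Cabozantinib 3. The next tumour of that group read 11.81 and the lowest 11.75, so the gap is wide only beside a narrow range. It was the 1 value so placed in 81 groups of 4 or 5 tumours over 27 genes, where chance gives about 1 in 20. A single flag is thus no more than chance gives.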

How the results depend on the processing

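Col4a1 and Col4a2 kept their fall with cabozantinib, averaged over the antibody, in all 29 alternatives (highest adjusted p 0.00375 and 0.00601), and the count of 2 members stayed between 2 and 3 when single tumours were left out. The rise of Ogn with the antibody passed in 27 of 29 and was lost with the Y-linked (1.20) and macrophage (1.10) scores as covariates. The antibody count of 21 became 4 without the 3 tumours highest in muscle genes, 11 without the 2 highest in adipocyte genes, 0 with the Y-linked or the macrophage score, and 1 (without AntiPD1 2) to 29 (without Cabozantinib 4) with single tumours left out. Combination against Placebo, 7 members, gave 21 with only the 2 groups fitted, 13 with array weights, 4 with the muscle score, 3 without the muscle-high tumours, 0 with the Y-linked or macrophage score, and 0 to 12 without single tumours. Cabozantinib against Placebo, 0 members, gave 1 with the low-signal filter, centring on medians, the trend and robust prior or the adipocyte score, 2 with array weights, the muscle score, without muscle-high tumours, or with the Y-linked or macrophage score, and 0 to 2 without single tumours. AntiPD1 against Placebo, 0 members, gave 20 with array weights, and 0 without any single tumour. Combination against Cabozantinib, 0 members, gave 2 with array weights and 0 to 13 without single tumours. Combination against AntiPD1, 2 members, gave 0 with only the 2 groups, 1 without muscle-high tumours and 0 to 2 without single tumours. AntiPD1 against Cabozantinib, 2 members, gave 0 with only the 2 groups or the Y-linked score, 25 with array weights, 10 with the muscle score and 2 to 16 without single tumours. Any difference among the groups, 4 members, gave 27 with array weights, 2 without adipocyte-high tumours and 2 to 20 without single tumours. The interaction count was 0 in every alternative run.

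Of 34 results for single genes 25 changes of sign were seen, all for the antibody averaged over cabozantinib. With the Y-linked score the differences were -0.26 for Col1a1, -0.11 for Col1a2, -0.16 for Col3a1, -0.23 for Col5a1, -0.33 for Col6a1, -0.18 for Col6a2, -0.06 for Col16a1, 0.03 for Col18a1, -0.18 for Bgn, -0.02 for Sparc, -0.12 for Postn, -0.25 for Vcan, -0.21 for Pdpn and -0.21 for Mmp2. With the macrophage score they were -0.25 for Col1a1, -0.08 for Col1a2, -0.25 for Col3a1, -0.06 for Col5a1, -0.24 for Col6a1, -0.14 for Col6a2, -0.12 for Bgn, -0.20 for Postn, -0.14 for Vcan, -0.33 for Pdpn and -0.24 for Mmp2. The cause was not tested for any of these. Scaling moved the median of all genes by at most 0.059. With the first number of the mouse name, which some tumours share, as a random block (consensus correlation -0.103), all 34 results for single genes kept their calls. The counts were then 22 for the antibody and 8 for Combination against Placebo, and the others did not move. The replicate numbers follow the order of deposition and pair no tumours, so no fit used them as a block.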
